A study of Mus musculus with 6 samples.

Results

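The genes of the voltage-gated sodium channels, the voltage-gated calcium channels and the HCN channels were followed in RNA of the cochlear modiolus. They were chosen by symbol, as protein-coding genes whose name begins with Scn and a digit, with Cacna, Cacnb, Cacng or Cacnn, or with Hcn and a digit. This gave 44 of the 22028 protein-coding genes of the annotation: 10 sodium channel alpha subunits, 4 sodium channel beta subunits, 10 calcium channel alpha1 subunits, 4 alpha2delta, 4 beta and 8 gamma subunits, and 4 HCN channels. The modiolus is the bony core of the cochlea that holds the spiral ganglion neurons (SGNs). It was taken from wild-type C57BL/6 male mice, and 1 RNA-seq library was made for each of 3 control and 3 degenerated samples. The age given is 8 weeks, which in the paper is that of the mice used to set up the model. Degenerated samples came from day 30 after a subcutaneous dose of 1 g/kg kanamycin, an aminoglycoside antibiotic, and an intraperitoneal dose of 0.4 g/kg furosemide, a loop diuretic, a combination that kills hair cells. Control mice were given saline, and the day on which they were sampled is not stated in the sources used here. Whether both groups had the same age at sampling is therefore not known. The labels call the cells spiral ganglion neurons, but the sample was tissue, and genes of neurons, Schwann cells and hair cells were all measured in it. In such bulk RNA, fewer cells of a type and less RNA per cell cannot be told apart. The sources do not say whether a library was made from 1 animal or from several, so p-values measure only the spread between these samples.

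Sodium channels open on depolarization and carry the upstroke of the action potential, and in SGNs they gather at the heminode beside the hair cell synapse and at the nodes of Ranvier. Their alpha subunit forms the pore, and beta subunits change gating and act as adhesion molecules. A calcium channel is built on a pore-forming alpha1 subunit (L-type, P/Q-, N- and R-type, or T-type), with an intracellular beta subunit that brings it to the membrane and an extracellular alpha2delta subunit. The gamma family holds a muscle channel subunit and the TARPs, which mainly traffic AMPA-type glutamate receptors, the receptors that SGNs use at the hair cell synapse. HCN channels open on hyperpolarization and carry the mixed cation current Ih, which is prominent in SGNs.

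The deposited table counts reads per Ensembl transcript and lists only part of the transcripts, so every value describes the listed part of a gene. Of the 44 genes, 38 had a listed transcript, with 134 of 296 transcripts in all, and 4 (Cacng1, Cacng2, Cacng4 and Cacng6) had every transcript listed. Scn4a, Scn7a, Scn4b, Cacng5, Hcn2 and Hcn4 had none, so that their expression is not analysed here. After a filter on low counts, 27 genes were tested. Another 5, Scn10a, Scn11a, Cacna1f and Cacng6 among them, had 0 counts in all 6 libraries, which allows up to 3 counts, or 0.191 to 0.237 CPM, in each. The remaining 6 (Scn9a, Cacna1s, Cacnb4, Cacng1, Cacng3 and Cacng8) had 88 counts or fewer over all libraries and were not tested. The libraries held between 12480876 and 15549319 counts. Levels are given as CPM, that is, counts set against library size after TMM scaling, and levels of different genes are compared only per kilobase of transcript length. Fold changes are on the log2 scale, degenerated against control, with a standard error (SE). A gene was called when its unadjusted p was under 0.01 and its absolute log2 fold change above 0.2. No exact permutation test of 3 libraries against 3 can give a two-sided p under 0.1.

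A channel gene can have a pair of exons of which a transcript holds only one, and such a pair was examined in Cacna1d. In Cacna1d, an exon of 104 bases encodes the inner, pore-lining end of the first domain of the channel. Both copies are shown because the counts of their transcripts differed between libraries, as described further on. The transcripts also differ outside this exon, with 8688 bases in Cacna1d-202 and 8068 in Cacna1d-201. Their counts therefore do not measure the use of this exon alone. The copy in Cacna1d-202 lies at chr14:30171296-30171399 of GRCm38 on the minus strand, and that in Cacna1d-201 at chr14:30171956-30172059. Capitals mark the bases at which the copies differ, and each sequence is written 5′ to 3′ on the strand of the gene.
Cacna1d-202: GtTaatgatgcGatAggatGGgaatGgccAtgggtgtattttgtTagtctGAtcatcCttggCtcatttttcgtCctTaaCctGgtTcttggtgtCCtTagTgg
Cacna1d-201: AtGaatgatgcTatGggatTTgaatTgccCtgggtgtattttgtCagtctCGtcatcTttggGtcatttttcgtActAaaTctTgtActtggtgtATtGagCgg
The copies differed at 22 bases and were equal at 82, an identity of 78.8%. Exons this similar share many stretches of sequence, although a read that covers a capital belongs to one copy only.

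Of the 27 channel genes tested, 1 was called lower in degenerated libraries, Cacnb3, and 0 were called higher. Over all 14118 genes tested, 0.715% were called lower and 2.01% higher, 2.73% in all. In edgeR's quasi-likelihood test, 0 of the channel genes had an adjusted p under 0.05, as did 0% of all genes, and at an unadjusted p under 0.05 2 were higher, Cacna1e and Scn1a, and 2 lower, Cacnb3 among them. At that p, 6.08% of all genes were higher and 3.6% lower, together 9.68%. The same 4 genes were the ones tested whose control and degenerated libraries did not overlap, 2 above and 2 below, where the shares over all genes were 10.3% above and 7.37% below, together 17.7%. The log2 fold change was positive in 15 channel genes and negative in 12, with a median of 0.07, and the median over all genes was -0.003. The median was -0.51 over 15 neuronal marker genes, all of which were tested.

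**Figure D1:**
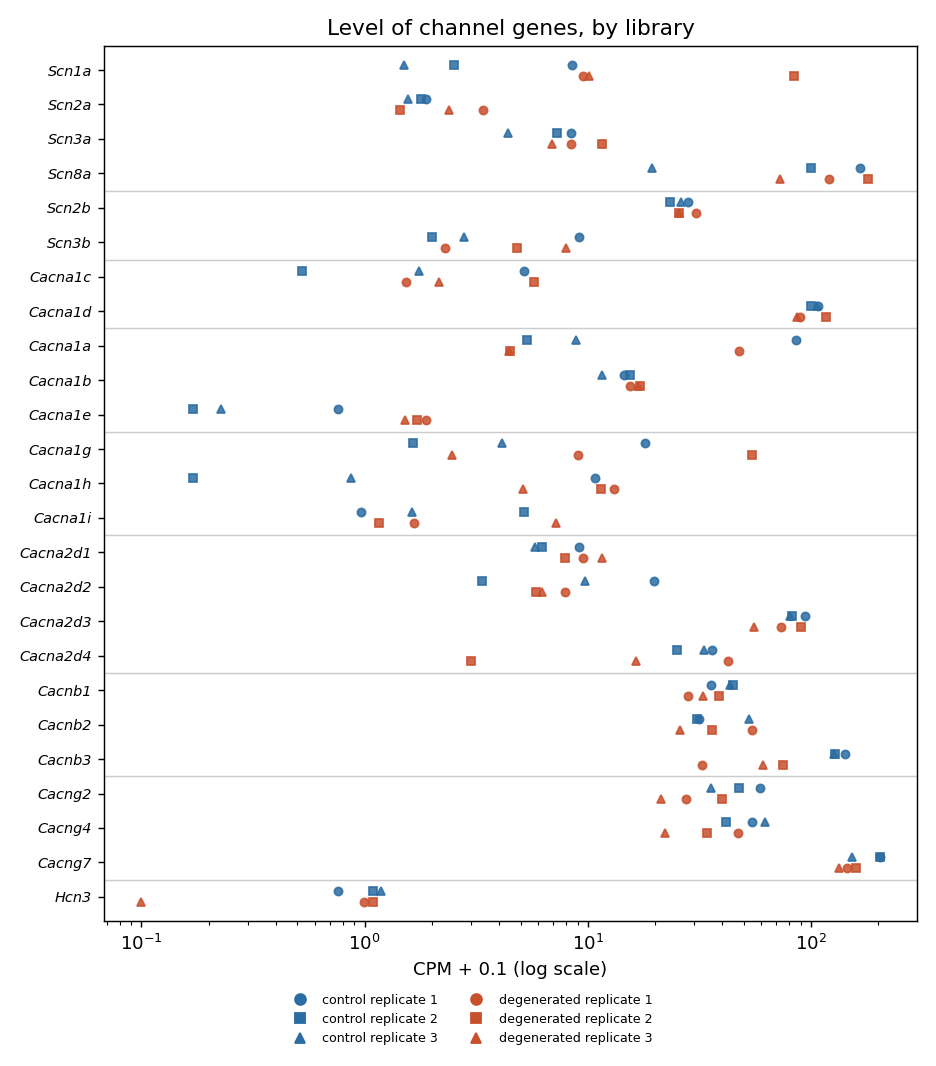
Level of 25 of the channel genes tested, as CPM plus 0.1 on a log axis, with 1 point per library, controls in blue above degenerated libraries in red, and lines between the groups of subunits. Cacnb3 has every degenerated library below every control, Cacna1e and Scn1a have every one above, and Cacna1a, Cacna1g, Cacna1h and Scn8a spread widely within a group.

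**Figure D2:**
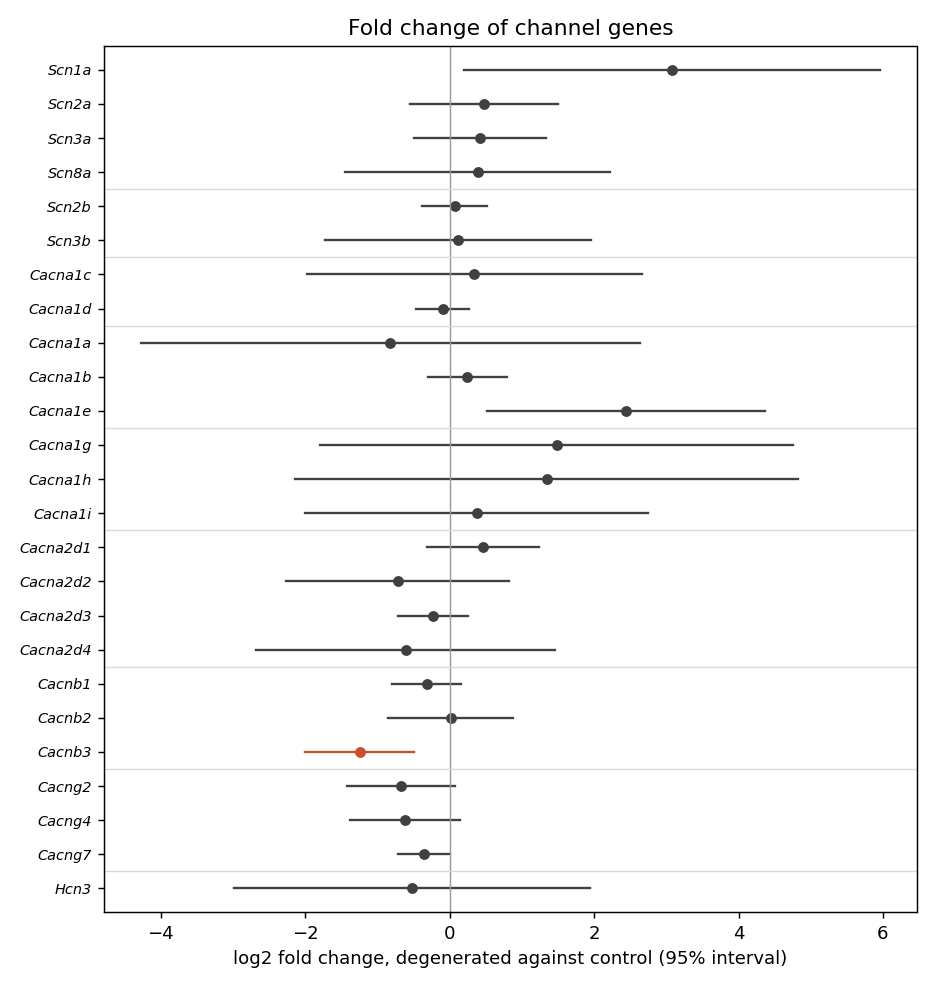
Log2 fold change of the same 25 genes, degenerated against control, with the 95% interval from edgeR's quasi-likelihood fit as a line. The interval of Cacnb3, in red, runs from -1.997 to -0.494, those of Cacna1e and Scn1a also leave out 0, and those of Cacna1a and Cacna1g span several log2 units.

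Beta subunits of the calcium channel held the one gene that passed the criteria. Cacnb3 (ENSMUSG00000003352, chr15:98630840-98644529 of GRCm38, plus strand) encodes a beta subunit of neuronal calcium channels. It had 143, 129 and 127 CPM in control replicates 1, 2 and 3 and 32.4, 74.4 and 61.1 CPM in degenerated replicates 1, 2 and 3. Every degenerated library lay below every control, and the controls lay close together while degenerated replicate 1 stood below the other two. The mean fell from 133 ± 8.55 to 56.0 ± 21.5 CPM (SD, n = 3 each). This was a log2 fold change of -1.25 (SE 0.31, 95% interval -1.997 to -0.494), and edgeR's quasi-likelihood test gave an unadjusted p of 0.00667 (adjusted p 0.342). Leaving out single libraries moved it between -1.51 and -0.98. The call was lost with any control or degenerated replicate 3 left out (unadjusted p 0.0176 to 0.0209 in edgeR's test) and with the replicate number as a block (unadjusted p 0.0155). With DESeq2 the adjusted p of Cacnb3 was 0.0349.

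All counts of Cacnb3 came from 1 of its 7 annotated transcripts, Cacnb3-202, which encodes protein and starts at chr15:98632376. The coding transcript Cacnb3-201, which starts at chr15:98634767, is not analysed here. The fall is therefore that of Cacnb3-202, and a shift to unlisted transcripts of the gene was not tested. RefSeq places starts of the gene at chr15:98632328 and at chr15:98634767, so the listed transcript lies at the upstream start. The 250 bases before each start are shown to compare the upstream start, whose transcript fell, with the downstream one, whose transcript was not measured. They were taken from RefSeq (GRCm38.p6, plus strand), at chr15:98632078-98632327 and chr15:98634517-98634766, and capitals mark the GC box, searched as GGGCGG on both strands.
Cacnb3 upstream promoter: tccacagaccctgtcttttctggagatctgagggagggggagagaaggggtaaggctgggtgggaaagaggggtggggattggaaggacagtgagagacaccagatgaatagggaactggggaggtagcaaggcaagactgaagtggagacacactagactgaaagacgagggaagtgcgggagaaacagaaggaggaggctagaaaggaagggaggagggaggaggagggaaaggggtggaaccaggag
Cacnb3 downstream promoter: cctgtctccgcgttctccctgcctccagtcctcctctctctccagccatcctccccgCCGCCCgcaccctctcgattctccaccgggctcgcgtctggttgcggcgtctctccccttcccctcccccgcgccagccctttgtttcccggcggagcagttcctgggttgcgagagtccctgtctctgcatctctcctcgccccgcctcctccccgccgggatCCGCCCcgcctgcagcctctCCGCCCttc
The upstream promoter held 0 GC boxes in this window and 56% of its bases were G or C. The downstream one held 3 and had 70.4%. A GC box stood in a promoter of 17 of the 32 channel genes with a RefSeq promoter, or 53.1%, and in 35.4% of all 27025 genes. A gene counted here if any of its promoters held the box. Counted by promoter, 17 of 43 held it in the channel genes, and 32.7% of 32851 did over all genes, a smaller gap. The TATA box, searched as TATAAA, was found in 2 of the 32 (Cacna1d and Scn2a), or 6.25%, and in 14.3% of all genes. The left part of the RE1 element of neuronal genes, searched as TTCAGCACC, was in 0 of the 32 and in 0.348% of all genes. A match this rare would be missing from most sets of 32 genes, and only the 250 bases before a start were searched. Whether channel genes hold the element cannot be read from this.

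The other beta subunits did not show the change of Cacnb3. Cacnb1, whose protein is best known from skeletal muscle, had 35.4, 44.6 and 43.3 CPM in controls and 27.9, 38.6 and 32.6 in degenerated libraries. The groups overlapped, and the log2 fold change was -0.32 (SE 0.20). Cacnb2, which includes the beta subunit of hair cell and heart L-type channels, had a log2 fold change of 0.01 (SE 0.36). Only 14.2% of its counts came from coding transcripts. A retained-intron transcript of it, Cacnb2-207, had 4, 10 and 2 counts in controls and 55, 45 and 39 in degenerated libraries. When each of 26065 transcripts was tested by itself, a test added after the data were seen, Cacnb2-207 was the one channel transcript called higher of 43 tested (log2 fold change 3.12, SE 0.65, unadjusted p 0.00332, edgeR's adjusted p 0.422). Cacnb3-202 was the one called lower, and 1.79% of all transcripts were called. Cacnb4, of which no coding transcript was listed, had 3 to 4 counts in controls and 4 to 11 in degenerated libraries. Per kilobase, the level of the 4 beta genes together was 80.0 to 84.8 in controls and 41.9 to 60.2 in degenerated libraries, of which Cacnb3 made up 52.8 ± 3.40 and 22.3 ± 8.54 (SD, n = 3 each).

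Several neuronal marker genes were also lower in degenerated libraries, and their part in the fall of Cacnb3 was not tested. The 15 neuronal markers summed to between 12053 and 15408 CPM in controls and between 7370 and 10661 CPM in degenerated libraries, without overlap. Most of this sum came from Nefl, Nefm, Nefh, Snap25 and Calb2. Taken singly, 7 of the 15 had every degenerated library below every control, and the others overlapped. The sum was lowest in degenerated replicate 3 and Cacnb3 in degenerated replicate 1, and with 3 libraries neither a link nor its absence can be read from these orders. Of these 15, 1 was called lower (Calb2, which encodes the calcium buffer calretinin, log2 fold change -1.07) and 0 higher. Another 5 were lower at an unadjusted p under 0.05 (Nefl, Nefm, Nefh, Snap25 and Thy1, log2 fold changes -0.56 to -0.73). Slc17a7, Rbfox3 and Stmn2 had log2 fold changes of -0.68, -0.51 and -0.28, each with an unadjusted p above 0.05 in edgeR's test. Tubb3, Uchl1 and Syn1, which are markers of neurons as well, had log2 fold changes of -0.04, -0.07 and 0.07. Map2, Gata3 and Prph had positive values of 0.08, 0.29 and 1.295. Of the 15 values, 11 were negative and 4 positive. Gene by gene the channel genes thus stood on both sides of the neuronal median of -0.51, with Cacnb3 further below 0 and Cacna1b and Scn2b above 0.

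**Figure D3:**
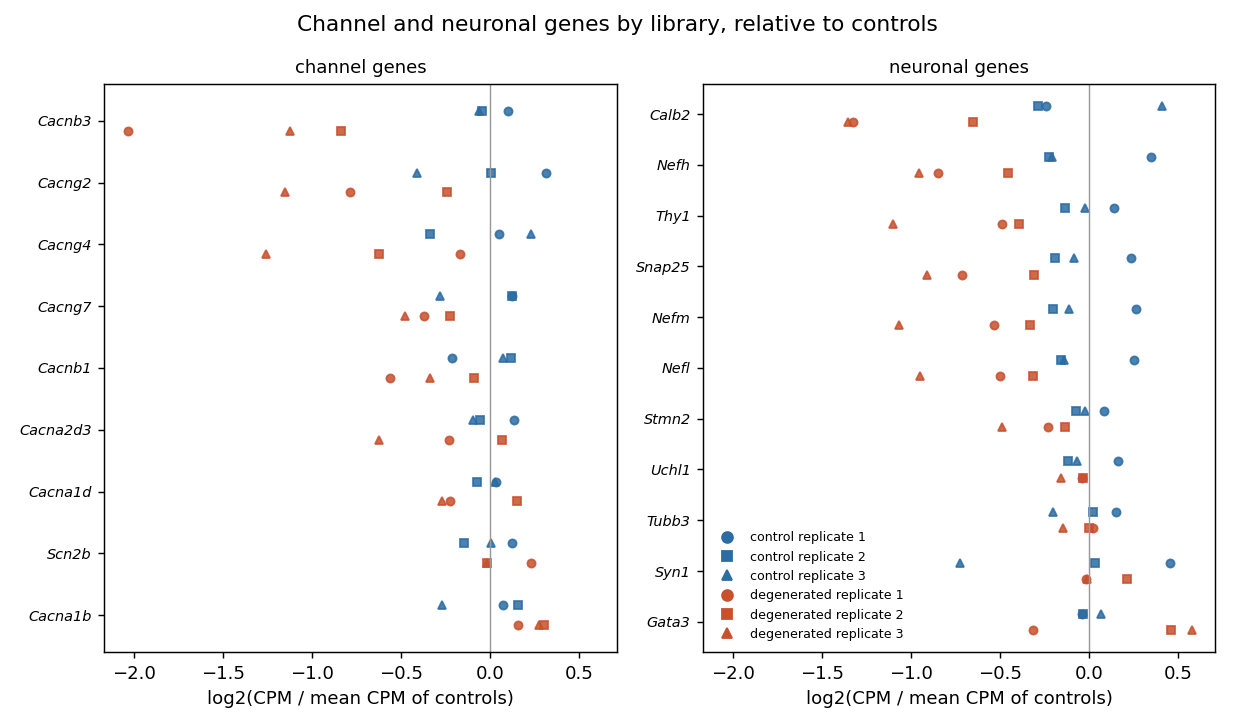
Level of 9 channel genes and 11 neuronal marker genes in each library, as log2 of CPM over the mean CPM of the controls, with controls in blue and degenerated libraries in red. Cacnb3 in degenerated replicate 1 is the lowest point of the left panel. Calb2 and the neurofilament genes are lower in degenerated libraries on the right, while Tubb3, Uchl1 and Syn1 lie around 0 as Scn2b and Cacna1d do on the left.

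Among sodium channel beta subunits, Scn2b encodes one that is bound to the alpha subunit by a disulfide bond. It had 28.1, 23.3 and 26.0 CPM in controls and 30.3, 25.5 and 25.6 in degenerated libraries. The groups overlapped, and the log2 fold change of 0.07 had a 95% interval of -0.38 to 0.52. Scn3b was low, at 1.91 to 9.07 CPM in controls and 2.19 to 7.89 in degenerated libraries, with a log2 fold change of 0.11 (SE 0.75).

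Scn8a was the leading sodium channel alpha subunit in the listed transcripts, at 10.9 ± 7.19 per kilobase in controls (SD, n = 3). Scn8a (chr15:100869858-101045938) encodes the main alpha subunit of mature nodes of Ranvier. It had 166, 100 and 19.2 CPM in controls and 121, 181 and 72.3 CPM in degenerated libraries. Both the lowest and the second-highest library were controls, and the groups overlapped. For Scn8a the log2 fold change was 0.39 (SE 0.75, unadjusted p 0.623, edgeR's adjusted p 0.895), and without control replicate 3 it was -0.11. Of its 20 transcripts 14 were listed.

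The counts of Scn8a were also divided differently between its transcripts from library to library. Scn8a-201 and Scn8a-205, of 11293 and 11232 bases, both encode protein, with coding sequences of 5934 bases each. The exons in which they differ were not examined. Scn8a-201 had 1223, 2 and 269 counts in controls and 892, 2351 and 7 in degenerated libraries. Scn8a-205 had 1233, 1379 and 0 counts in controls and 829, 165 and 878 in degenerated libraries. Scn8a-201 thus took from 0.145% to 100% of the counts of both in controls and from 0.791% to 93.4% in degenerated libraries. Control replicate 1 and degenerated replicate 1 were alike at 49.8% and 51.8%, and each group also held a library near either end. These shares spanned nearly the whole range among replicates of 1 group, so no difference between the groups could be read from them. How the authors' counting divided reads between similar transcripts is not stated in the sources used here, and its part in these shares was not tested.

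Other channel genes also had transcripts that were present or absent from library to library. Of the 40 channel transcripts with over 100 counts in all, 8 were at 0 in some libraries but not in all. Cacna1a-202, a coding transcript, had 1199 counts in control replicate 1 and 628 in degenerated replicate 1, and 0 in the other 4 libraries. Cacna1g-201 had 13 counts in control replicate 1 and 646 in degenerated replicate 2, and 0 in the others. Cacna1d-202 had 502 counts in degenerated replicate 3, or 45.8% of the counts of its pair, and 0 in the other 5. Why these transcripts were at 0 was not tested.

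**Figure D4:**
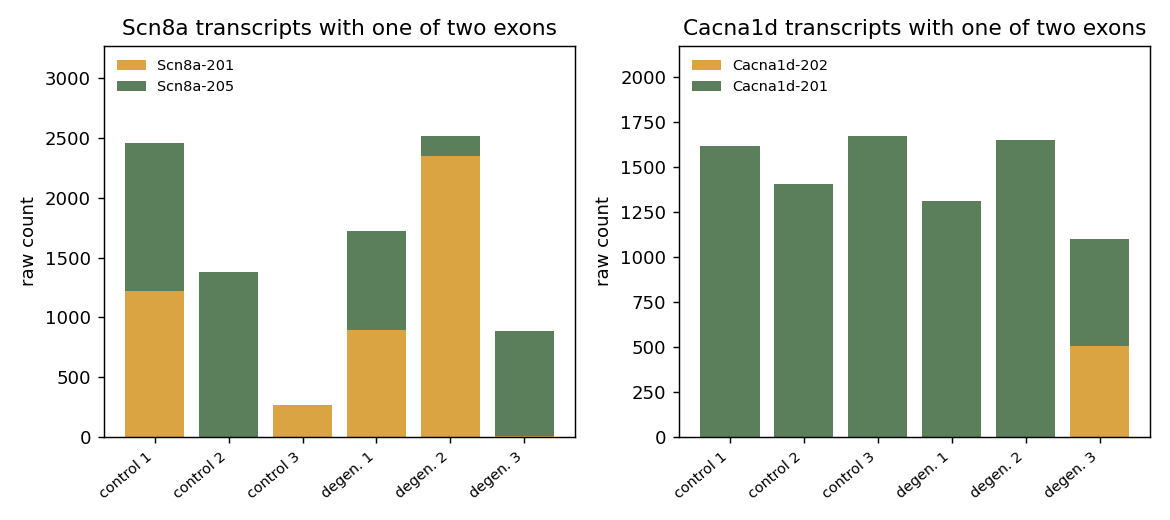
Raw counts of the paired transcripts of Scn8a (left) and Cacna1d (right) in each library, stacked, with each transcript set by colour. Counts are of whole transcripts, and the exons of the Scn8a transcripts were not compared. Scn8a changes from 1 transcript to the other within both groups, and Cacna1d-202 is seen in degenerated replicate 3 alone, at 502 counts.

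Scn1a encodes an alpha subunit of central neurons, inhibitory ones above all, that is also found in sensory neurons. It lies at chr2:66270778-66440840 on the minus strand. It had 8.41, 2.41 and 1.40 CPM in controls and 9.37, 83.7 and 10.02 CPM in degenerated libraries. The groups did not overlap, but degenerated replicates 1 and 3 were within 2 CPM of control replicate 1, and degenerated replicate 2 stood far above the other libraries. A log2 fold change of 3.07 (SE 1.18, unadjusted p 0.0400, edgeR's adjusted p 0.489) was 1.25 without degenerated replicate 2. In that library Scn1a-202 had 262 counts, against 0 in the other 5. Scn3a, an alpha subunit typical of the developing nervous system, had 4.28 to 8.34 CPM in controls and 6.79 to 11.5 in degenerated libraries. Scn2a, of which no coding transcript was listed, had 1.47 to 1.79 CPM and 1.34 to 3.28. Their log2 fold changes were 0.42 (SE 0.38) and 0.48 (SE 0.42). Scn9a, the alpha subunit of nociceptors and sympathetic neurons, had 1, 2 and 1 counts in controls and 4, 4 and 0 in degenerated libraries in the 1 of 7 transcripts listed. Scn10a and Scn11a, also of nociceptors, were at 0 in the transcripts listed.

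Cacna1d was the leading L-type alpha1 gene, at 12.9 ± 0.53 per kilobase in controls (SD, n = 3). Its channel carries the calcium current of inner hair cells and also occurs in neurons. Cacna1d (chr14:30039939-30491455) had 107, 99.4 and 107 CPM in controls and 89.5, 116 and 86.6 CPM in degenerated libraries. The groups overlapped, with degenerated replicate 2 the highest of all 6. The log2 fold change was -0.10 (SE 0.15, 95% interval -0.46 to 0.26, unadjusted p 0.531, edgeR's adjusted p 0.863). Over the same libraries, Ocm and Slc26a5, the oncomodulin and prestin genes of outer hair cells, fell by 5.83 and 5.11 on the log2 scale, and Otof, the otoferlin gene of inner hair cells, had a log2 fold change of -0.56 (SE 0.44). Cacna1c, the L-type gene of heart and smooth muscle, had a log2 fold change of 0.34 (SE 0.95) at 0.42 to 5.10 CPM in controls and 1.44 to 5.635 in degenerated libraries. Cacna1f, the L-type gene of photoreceptors, was at 0.

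Cacna1s, the L-type alpha1 gene of skeletal muscle, was near the limit of counting in all libraries but 1. It had 0.33, 0.14 and 4.53 CPM in controls and 0.48, 0.07 and 0.16 CPM in degenerated libraries. Control replicate 3, with 71 of the 88 counts, stood above the others. The skeletal muscle gamma subunit gene Cacng1 was also highest there, with 22 of 31 counts. The 15 skeletal muscle markers, of which 14 were listed and 5 tested, summed to 566 CPM in control replicate 3 and to between 15.5 and 29.2 CPM in the other 5 libraries. The myosin gene Myh2 was at 0 in every library. None of the 5 muscle markers tested was called.

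P/Q- and N-type channels carry the calcium influx for release at most nerve terminals. Cacna1a, the P/Q-type gene, led its group at 7.998 ± 5.62 per kilobase in controls (SD, n = 3). It had 85.2, 5.24 and 8.74 CPM in controls and 47.4, 4.37 and 4.34 CPM in degenerated libraries. Replicate 1 of both groups was high through Cacna1a-202, and the groups overlapped. Cacna1a-202 was the only coding transcript listed, so in the other 4 libraries all counts came from transcripts that encode no protein. The level per kilobase in those 4 libraries does not describe coding transcripts. The log2 fold change of Cacna1a was -0.82 (SE 1.41, unadjusted p 0.582 in edgeR's test). It ranged from -2.94 without degenerated replicate 1 to 1.41 without control replicate 1. Cacna1b, the N-type gene, was much steadier, with 14.5, 15.4 and 11.4 CPM in controls and 15.3, 17.0 and 16.7 CPM in degenerated libraries. This came to a log2 fold change of 0.25 (SE 0.23, 95% interval -0.31 to 0.80). The groups overlapped only through control replicate 2 and degenerated replicate 1, which were nearly equal.

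Cacna1e, the R-type gene (chr1:154390731-154884501, minus strand), had the second largest fold change of the channel genes tested and the least counts behind it among those with an unadjusted p under 0.05. It had 0.66, 0.07 and 0.13 CPM in controls and 1.78, 1.62 and 1.42 CPM in degenerated libraries, from 80 counts in all. Every degenerated library lay above every control, and the controls were at 10, 1 and 2 counts. The means were 0.287 ± 0.326 and 1.61 ± 0.179 CPM (SD, n = 3 each). This is a log2 fold change of 2.45 (SE 0.79, 95% interval 0.52 to 4.37), at an unadjusted p of 0.0206 and edgeR's adjusted p of 0.421. It passed the criteria with DESeq2 (unadjusted p 0.00908), with limma-voom (0.00797) and without control replicate 1 (log2 fold change 3.88, unadjusted p 0.00129 in edgeR's test). Cacna1e did not pass in edgeR's test with RLE normalization or other filters (unadjusted p 0.0212 to 0.0235). Nor did it pass with the replicate number as a block (0.0238) or with coding transcripts only (0.0394). With any other single library left out it did not pass either (unadjusted p 0.0431 to 0.0658 in edgeR's test). Most counts, 91.2%, came from coding transcripts, chiefly Cacna1e-203.

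T-type channels open near the resting potential. Cacna1g led this group at 4.80 ± 2.11 per kilobase in controls (SD, n = 3), with 18.0, 1.56 and 4.02 CPM in controls and 8.96, 54.5 and 2.37 CPM in degenerated libraries. In control replicates 2 and 3 all its counts came from transcripts of 434 to 797 bases that encode no protein. The level per kilobase there does not describe coding transcripts. The groups overlapped, and degenerated replicate 2 stood above the rest through Cacna1g-201. Its log2 fold change of 1.48 (SE 1.34) became -0.48 without that library. Cacna1h had 10.7, 0.07 and 0.77 CPM in controls and 13.1, 11.3 and 5.05 CPM in degenerated libraries. Control replicate 1 lay among the degenerated libraries while the other 2 controls lay far below them. Its log2 fold change of 1.35 (SE 1.42, unadjusted p 0.380) was 4.503 without control replicate 1, where Cacna1h passed the criteria (unadjusted p 0.00834 in edgeR's test). Cacna1i ranged from 0.86 to 5.09 CPM in controls and from 1.06 to 7.10 in degenerated libraries, a log2 fold change of 0.38 (SE 0.97).

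Cacna2d3 was the leading alpha2delta gene, at 23.2 ± 1.998 per kilobase in controls (SD, n = 3). Its protein is needed for normal synapses of auditory nerve fibres. It had 94.0, 82.4 and 80.3 CPM in controls and 73.1, 89.8 and 55.6 CPM in degenerated libraries. The groups overlapped, with degenerated replicate 3 the lowest, and the log2 fold change was -0.23 (SE 0.20, 95% interval -0.72 to 0.25). Cacna2d1, the alpha2delta gene of muscle and sensory neurons, had a log2 fold change of 0.46 (SE 0.32), but only 4.25% of its counts came from coding transcripts. Cacna2d2 had a log2 fold change of -0.72 (SE 0.63), with control replicate 1 at 19.7 CPM and the other libraries between 3.25 and 9.57.

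Cacna2d4, best known from photoreceptors, had 36.1, 24.9 and 33.2 CPM in controls and 42.5, 2.89 and 16.4 CPM in degenerated libraries. Degenerated replicate 1 was the highest of all and degenerated replicate 2 the lowest, so the spread within the degenerated group exceeded that between the groups (log2 fold change -0.61, SE 0.85). Left-out libraries moved this value from -1.71 (without degenerated replicate 1) to -0.11 (without degenerated replicate 2). Of the 11 hair cell markers tested, 7 had the degenerated libraries in the order of Cacna2d4 (Otof, Tmc1, Pou4f3, Strc, Myo7a, Lhx3 and Atoh1) and 4 did not (Ocm, Slc26a5, Myo6 and Cdh23). The share of all genes with this order was not computed, so no link to hair cells can be read from the count. Myo6, an unconventional myosin gene, had the reverse order, with 68.8, 446 and 223 CPM in degenerated libraries. Slc26a5 also had the reverse order, at 0.137, 0.493 and 0.316 CPM there. Pou4f3, a transcription factor gene of hair cells, had 43.0, 28.4 and 34.6 CPM in controls and 37.8, 7.47 and 15.4 CPM in degenerated libraries. The 14 hair cell markers, of which 13 were listed and 11 tested, summed to 717 to 1031 CPM in controls and 492 to 615 CPM in degenerated libraries, and 2 were called lower and 0 higher. The acetylcholine receptor gene Chrna9 was at 0 in every library in the transcript listed. The part of these cells in the level of Cacna2d4 was not tested.

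**Figure D5:**
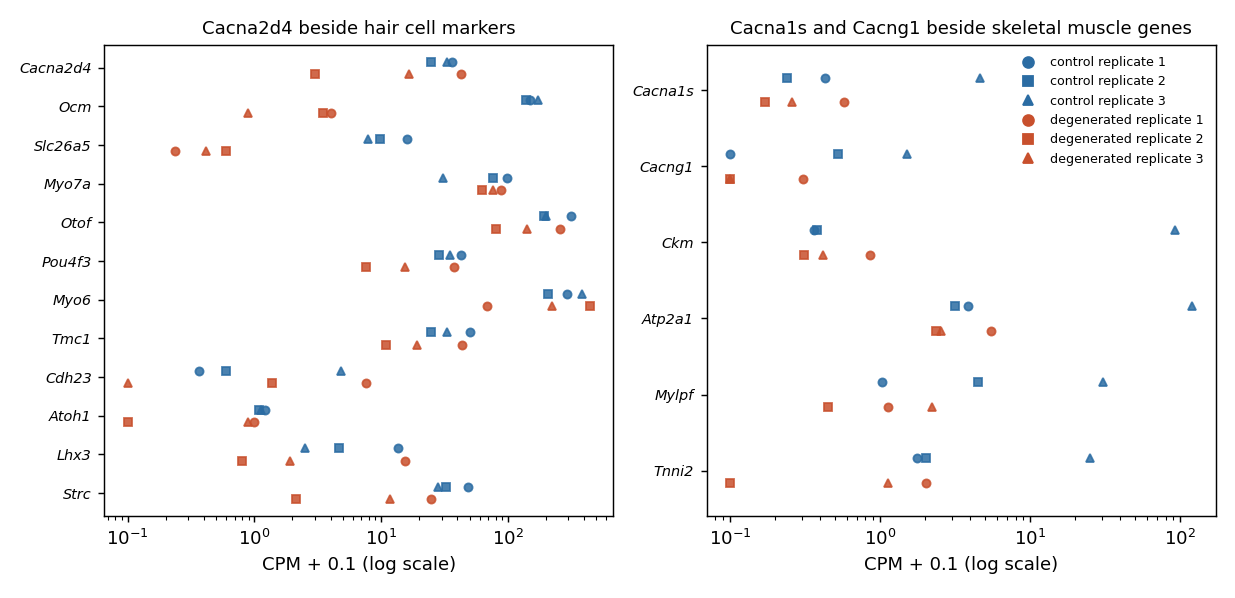
Levels in each library, as CPM plus 0.1 on log axes, of Cacna2d4 beside the 11 hair cell markers tested (left) and of Cacna1s and Cacng1 beside 4 genes of skeletal muscle (right). Degenerated replicate 2 is lowest for Cacna2d4, at 2.89 CPM, and is the lowest degenerated library in 7 of the 11 markers but the highest of all for Myo6. Control replicate 3 has the highest point in each row of the right panel, at 4.53 CPM for Cacna1s.

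Of the gamma family, 3 genes passed the filter, and all are TARPs. Cacng7 had the highest level per kilobase of all the channel genes, 84.2 ± 13.0 in controls (SD, n = 3). It had 203, 203 and 153 CPM in controls and 144, 159 and 134 CPM in degenerated libraries. The groups overlapped because control replicate 3 lay below degenerated replicate 2. With a log2 fold change of -0.35 (SE 0.15, 95% interval -0.72 to 0.01, unadjusted p 0.0552, edgeR's adjusted p 0.534), it did not pass the criteria. Without control replicate 3 the value was -0.49 and Cacng7 passed the criteria (unadjusted p 0.00870 in edgeR's test).

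Cacng2, the stargazin gene, had 58.7, 47.3 and 35.5 CPM in controls and 27.4, 40.01 and 21.2 CPM in degenerated libraries. Cacng4 had 54.5, 41.7 and 61.8 CPM in controls and 46.9, 34.2 and 22.0 CPM in degenerated libraries. In both genes the groups overlapped by a single pair of libraries, degenerated replicate 2 with control replicate 3 in Cacng2 and degenerated replicate 1 with control replicate 2 in Cacng4. Log2 fold changes were -0.67 (SE 0.31, unadjusted p 0.0693) for Cacng2 and -0.62 (SE 0.31, unadjusted p 0.0961) for Cacng4. All 3 gamma genes tested, of 8, had negative log2 fold changes, and 0 were called. Cacng2 and Cacng4 are among the 4 with every transcript listed, so a switch to an unlisted transcript of the annotation does not enter their values. The measured gamma genes together had 95.2 to 118 per kilobase in controls and 72.1 to 91.6 in degenerated libraries. The TARP gene Cacng8 had 0 counts in all 3 controls and 0, 28 and 23 counts in degenerated libraries, and Cacng3 had 4 counts in degenerated replicate 1 alone.

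Of the HCN genes, Hcn2 and Hcn4 had no listed transcript. Hcn3, of which no coding transcript was listed, had 68 counts in all. Its CPM were 0.66, 0.99 and 1.08 in controls and 0.89, 0.99 and 0 in degenerated libraries. The groups overlapped, and the log2 fold change was -0.53 (SE 1.01).

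Beside the channels, 56 genes that anchor, regulate or resemble them were followed, of which 50 had a listed transcript and 44 were tested. Of these 44, 1 was called higher and 0 lower, with 21 positive and 23 negative log2 fold changes and a median of -0.01. This share of genes called higher was near that over all genes, 2.01%. The gene called was Gldn, which encodes gliomedin, the Schwann cell protein that gathers sodium channels at nodes. Gldn had 256, 194 and 189 CPM in controls and 311, 330 and 295 CPM in degenerated libraries. Every degenerated library lay above every control, and the means of 213 ± 37.2 and 312 ± 17.6 CPM (SD, n = 3 each) gave a log2 fold change of 0.55 (SE 0.15, unadjusted p 0.00878, edgeR's adjusted p 0.362). The call was lost with RLE normalization, with coding transcripts only and without control replicate 2 or 3 or any one degenerated library. The 10 markers of myelinating Schwann cells, 9 of them tested and 0 called, summed to 5597 to 9822 CPM in controls and 4914 to 7748 CPM in degenerated libraries, and Sox10 was not listed. None of the other 7 node anchors was called. Nfasc, the gene of neurofascin, had a log2 fold change of -0.07 (SE 0.21), Ank3, of ankyrin-G, 0.13 (SE 0.55), and Cntnap1, of the paranodal protein Caspr, -0.16 (SE 0.19). The cell adhesion genes Nrcam and Cntn1 had 0.63 (SE 0.28) and 1.85 (SE 2.24).

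Another 4 partners had an unadjusted p under 0.05 without passing the criteria, where 9.68% of all genes had such a p. Asic1, an acid-sensing sodium channel gene, had 186, 140 and 138 CPM in controls and 88.9, 118 and 92.0 CPM in degenerated libraries. Its log2 fold change was -0.63 (SE 0.18, unadjusted p 0.0122, edgeR's adjusted p 0.385), and the groups did not overlap. Stac2, whose protein binds L-type channels and slows their inactivation, had 336, 255 and 249 CPM in controls and 181, 228 and 156 CPM in degenerated libraries. Its log2 fold change was -0.57 (SE 0.19, unadjusted p 0.0233, edgeR's adjusted p 0.434), again without overlap. Rims1, an active zone protein gene, went from 32.6 ± 8.78 to 17.3 ± 4.80 CPM (SD, n = 3 each), with a log2 fold change of -0.92 (SE 0.32, edgeR's adjusted p 0.444). Gpd1l, which affects sodium channel trafficking, had 6.46 ± 2.55 and 14.8 ± 4.14 CPM (SD, n = 3 each), with a log2 fold change of 1.20 (SE 0.42, edgeR's adjusted p 0.452). Pex5l, the gene of the HCN trafficking protein TRIP8b, had a log2 fold change of 0.04 (SE 0.14). Smooth muscle and pericyte markers, 8 genes of which 6 were listed and 3 tested, summed to 82.8 to 101 CPM in controls and 77.6 to 132 CPM in degenerated libraries, with 0 called and Cnn1 at 0.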

How the data were processed

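RNA-seq of the cochlear modiolus was compared between 3 control and 3 degenerated libraries, grouped by their labels. The authors aligned reads with Hisat2 2.1.0 and ran StringTie 1.3.3b, while the submitters' processing notes also list Bowtie 0.12.2 and the builds mm8 and mm10 with no role. The deposited unit is the raw count per Ensembl transcript for 65535 transcripts. The counting step, its use of strand and its annotation are not stated in the sources used here. Of these, 65272 matched GENCODE M21 (GRCm38), 46.0% of its transcripts, and 263, with 0.125% of the counts, were left out. Counts were summed per gene. Exons of 9 channel genes overlap another gene (Cacna1a, Cacna1d, Cacna1h, Cacna1s, Cacna2d2, Cacnb2, Cacng2, Cacng8 and Scn9a), and without strand such reads cannot be told apart. For Cacng8 the other gene lies on the same strand, so strand would not separate them either.

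The test was edgeR's, version 4.0.16 under R 4.3.3 (filterByExpr, TMM, robust quasi-likelihood test, no covariates), with Benjamini-Hochberg adjustment over 14118 genes. The common biological coefficient of variation was 0.488. Replicates correlated at 0.883 to 0.926 (Pearson, log2 CPM), and none were duplicates. Calls used an unadjusted p under 0.01 and an absolute log2 fold change above 0.2, criteria the study states for another comparison. CPM per kilobase divides each transcript by its length before summing.

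Some channel genes are not reported here by name. The genes and lists were chosen with earlier results of these data known. Values per library are given for members with an unadjusted p under 0.05, most of the highest members per kilobase of the subunit groups and most of a fixed list of main subunits; others named were chosen after their values were seen. Alternatives were DESeq2 1.42.0, limma-voom (limma 3.58.1), RLE normalization, other filters, a replicate block, coding transcripts only and each library left out. Steps were tested on simulated data. Sequences came from GENCODE and RefSeq.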

Additional observations from a re-analysis of the deposited data

How the results depend on the processing

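Over 13 alternatives, 319 fold changes of 25 of the channel genes tested were recomputed, of which 291 kept their direction and their side of the criteria, 18 turned direction, 5 newly passed and 5 no longer passed. The 5 that no longer passed were all of Cacnb3, and 15 genes never turned. Against 0 channel genes called higher, DESeq2 called 2 (Cacna1e, and Cacng8, which edgeR's filter left out), limma-voom 1 and the test of each transcript 1; leaving out 1 library gave 0 to 2. Against 1 called lower, leaving out 1 library gave 0 to 1. DESeq2 gave 1 adjusted p under 0.05 among the channel genes, for Cacnb3, and 315 among 22604 genes, where edgeR gave 0 among the channel genes and 0 over all genes. Of the partner genes, 0 were called higher with RLE normalization, with coding transcripts only and with each transcript tested, and 0 to 1 with 1 library left out; 1 was called lower with DESeq2 and 1 with no filter on low counts, and 0 to 2 with 1 library left out. The causes were not tested.

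Replicate numbers were not shown to pair the samples, since deviations of same-numbered libraries correlated at 0.143, -0.0856 and 0.0657. With the replicate number as a block, 0 channel genes were called lower, and over all genes 160 were called higher and 58 lower.

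The log2 fold change of Cacnb2 turned to -0.00391 with DESeq2 and -0.000493 with no filter. With 1 library left out, it ranged from -0.32 to 0.30 for Cacnb2, -2.94 to 1.41 for Cacna1a, -0.45 to 1.53 for Cacna1c, -0.48 to 2.96 for Cacna1g, -0.92 to 1.43 for Cacna1i, -1.15 to 0.032 for Cacna2d2, -1.02 to 0.037 for Hcn3, -0.027 to 0.13 for Scn2b, -0.40 to 1.09 for Scn3b and -0.11 to 1.04 for Scn8a.

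Over all genes, where 284 were called higher and 101 lower, DESeq2 called 465 and 310, and coding transcripts alone 184 and 90. Without control replicate 1, 158 were called lower; leaving out control replicate 2 gave 185 called higher, control replicate 3 171, degenerated replicate 2 144 and degenerated replicate 3 179. The unlisted transcripts, counts under about 100 in all and 3 libraries a group limit what could be detected.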
